A study of Mus musculus and Homo sapiens
Mus musculus with 14 samples.

Results

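The classical axon guidance ligands and receptors were followed across 3 barcoded layers of the mouse retina and across dopaminergic and other amacrine cells. The genes were chosen by symbol alone, as every semaphorin, plexin, neuropilin, Eph receptor, ephrin, Slit, Robo, netrin, Dcc, neogenin (Neo1) and Unc5 receptor named in the layer counts, which gave 69 of 24460 genes. They comprised 20 semaphorins, 8 plexins, 2 neuropilins, 8 ephrins, 14 Eph receptors, 3 Slits, 4 Robos, 4 netrins and 6 netrin receptors. The opposite-strand transcripts Plxna4os1, Plxna4os2 and Plxna4os3, with 1 UMI each over the layer libraries, were left out. No gene named Plxnb3 was in the layer counts. Of the 69 genes, 66 were also in the amacrine counts, the others being Efna4, Ntn5 and Slit3.

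These proteins steer growing axons and dendrites and later take part in synapse formation. Semaphorins act through plexins, with neuropilins as co-receptors for most of the secreted ones. Ephrins bind Eph receptor tyrosine kinases, Slits bind Robos, and netrins bind Dcc, neogenin and Unc5 receptors. In the retina they are best known for guiding ganglion cell axons to the optic nerve and for placing the neurites of inner retinal neurons in their synaptic layers.

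Light-Seq copies RNA into cDNA inside a fixed section, joins a DNA barcode to the cDNA wherever patterned light falls, and reads barcode and cDNA together by sequencing. All tissue came from wild-type CD1 IGS mice in the third postnatal week and was fixed and cryosectioned, with no allele or agent that differed between groups. Barcodes were placed in the outer nuclear layer (ONL, rods and cones), in the bipolar cell layer (BCL, bipolar cells, Müller glia and horizontal cells) and in the layer of ganglion and displaced amacrine cells (GCL). The same 4 sections of 1 animal served all 3 layers, so their p-values measure the spread between sections, which is technical. A separate experiment barcoded cell bodies stained for tyrosine hydroxylase (TH+, the dopaminergic amacrine cells) and unstained amacrine cells (TH-) in 5 sections. Each section held a handful of TH+ cells, and the methods speak of a single source animal, so these p-values too measure the spread between sections. The following barcodes are shown because they alone tell the libraries of a section apart, and since the experiments were sequenced separately they reuse the same letters.
ONL: TATGGA
BCL: GTTAGG
GCL: AGGGTA
TH+ amacrine cells: GTTAGG
TH- amacrine cells: AGGGTA

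Each value is a count of distinct molecules (unique molecular identifiers, UMIs) per gene, given as CPM, the UMIs of a gene per 1000000 UMIs in its library. ONL libraries held 310228 to 801105 UMIs, BCL libraries 193869 to 208437 and GCL libraries 585655 to 785013. TH+ libraries held 30317 to 87449 UMIs and TH- libraries 134394 to 200344. At this depth 3 UMIs over all libraries of a group correspond to 1.32, 3.74 and 1.12 CPM for ONL, BCL and GCL, and to 11.7 and 3.74 CPM for TH+ and TH- cells. This is the limit that a count of 0 allows, and it covers counting error only. Marker genes went with the labels. The summed share of 6 rod markers was 4.43 to 5.34% of UMIs in the ONL against 0.927 to 1.65% in the BCL and 0.346 to 0.588% in the GCL. The BCL held 0.603 to 0.682% of UMIs in 7 bipolar markers and 0.671 to 0.751% in 6 Müller glia markers, against at most 0.0761% and 0.174% in the other layers. All 9 ganglion cell markers had UMIs and together made up 0.481 to 0.534% of UMIs in the GCL, against 0.0285 to 0.0514% in the BCL and 0.0245 to 0.0537% in the ONL. Of the layer markers, Slc6a3 and Mlana were at 0 UMIs.

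Guidance genes as a set had their highest mean share of UMIs in the GCL and their lowest in the ONL, and the ranges of GCL and BCL overlapped. Their 69 genes held 0.469% ± 0.006 of all UMIs in the GCL (SD, n = 4), 0.438% ± 0.038 in the BCL and 0.206% ± 0.018 in the ONL. The ranges were 0.464 to 0.475%, 0.382 to 0.466% and 0.187 to 0.230%, so every ONL library lay below every library of the other layers. In these bulk samples fewer cells of a type and less RNA per cell cannot be told apart. Of the 69 genes, 43 had their highest mean CPM in the GCL, 19 in the BCL and 7 in the ONL.

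Of the 69 genes, 57 had enough UMIs to be tested between layers, with edgeR's quasi-likelihood F test over all 11324 genes tested and Benjamini-Hochberg adjustment, and a call means an adjusted p under 0.05. Between ONL and BCL, 3 of the 57 were called for the ONL as the higher layer and 34 for the BCL. Over all genes tested these shares were 18.5% and 18.2%, or 36.7% in either direction. Between ONL and GCL, 5 were called for the ONL and 43 for the GCL, where all genes gave 29.3%, 32.2% and 61.5%. Between BCL and GCL, 10 were called for the BCL and 21 for the GCL, where all genes gave 16.1%, 20.4% and 36.5%. Of the 37, 48 and 31 calls, 26, 39 and 23 were kept under all 12 alternatives to the fit. Lost under at least 1 of them, or not tested there, were Efna5, Efnb1, Ephb3, Nrp1, Ntn4, Plxna1, Plxnd1, Sema4b, Sema4f, Sema6b and Unc5b between ONL and BCL. Between ONL and GCL these were Efna2, Efna3, Efnb3, Ephb3, Ephb4, Sema3c, Sema4b, Sema4f and Unc5c, and between BCL and GCL Efna3, Epha4, Ephb6, Nrp1, Plxnb1, Plxnd1, Robo1 and Sema5a. The median log2 fold change of the tested guidance genes was -1.22 for ONL over BCL, where that of all genes was 0.09. It was -1.95 for ONL over GCL with 0.00 for all genes, and -0.46 for BCL over GCL with -0.02 for all genes. Scaling by column totals alone, an alternative chosen after seeing the data, moved the median of all genes to -0.25, -0.16 and 0.15. It gave 3 and 40, 4 and 45, and 10 and 18 guidance genes called for the first and for the second layer of each pair. Of all genes it called 1198 for the ONL and 2889 for the BCL, in place of 2096 and 2056, and 2353 for the BCL and 1872 for the GCL, in place of 1826 and 2310.

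**Figure D1:**
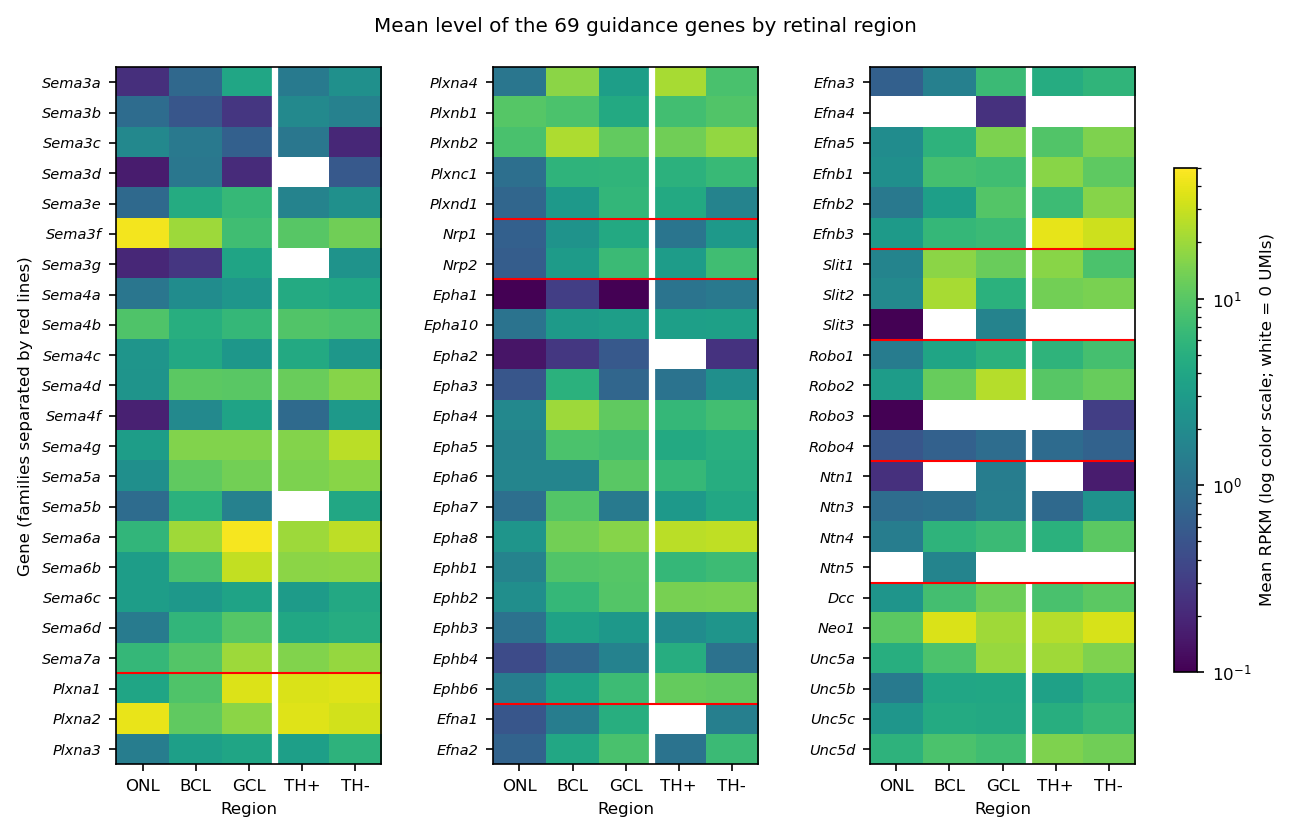
Mean RPKM of each of the 69 guidance genes (rows, in families separated by red lines) in the 5 barcoded regions (columns), on a log color scale where white stands for 0 UMIs. RPKM is CPM divided by the exonic length in kilobases. Of the 69 genes, 43 have their highest mean CPM in the GCL, 19 in the BCL and 7 in the ONL, and amacrine columns come from a separate experiment.

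Calls against both other layers sorted the genes into layer patterns. The ONL was called higher than both other layers for 3 genes, Plxna2, Sema3f and Sema4b, which is 5.26% of those tested where the share of all genes was 15.7%. Higher in the BCL than in both others were 8 genes (14.0%, against 5.83% of all genes), namely Slit2, Plxna4, Plxnb2, Epha3, Epha4, Epha7, Neo1 and Sema5b. Highest in the GCL by both calls were 20 genes (35.1%, against 17.5%), drawn from every family except Slits and netrins. For 6 of these, Robo1, Sema5a, Ephb6, Nrp1, Plxnd1 and Efna3, the call of GCL over BCL was lost in 2 to 6 of 12 alternatives (for Plxnd1 without section 1 or 2, and for Efna3 without section 1 or with the default filter). The ONL was called lower than both other layers for 30 genes (52.6%, against 13.8%), the BCL for Plxna2 alone (1.75%, against 2.27%) and the GCL for Plxnb1 and Sema3f (3.51%, against 10.3%). These shares are descriptions of the list, and all 3 comparisons reuse the same libraries.

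**Figure D2:**
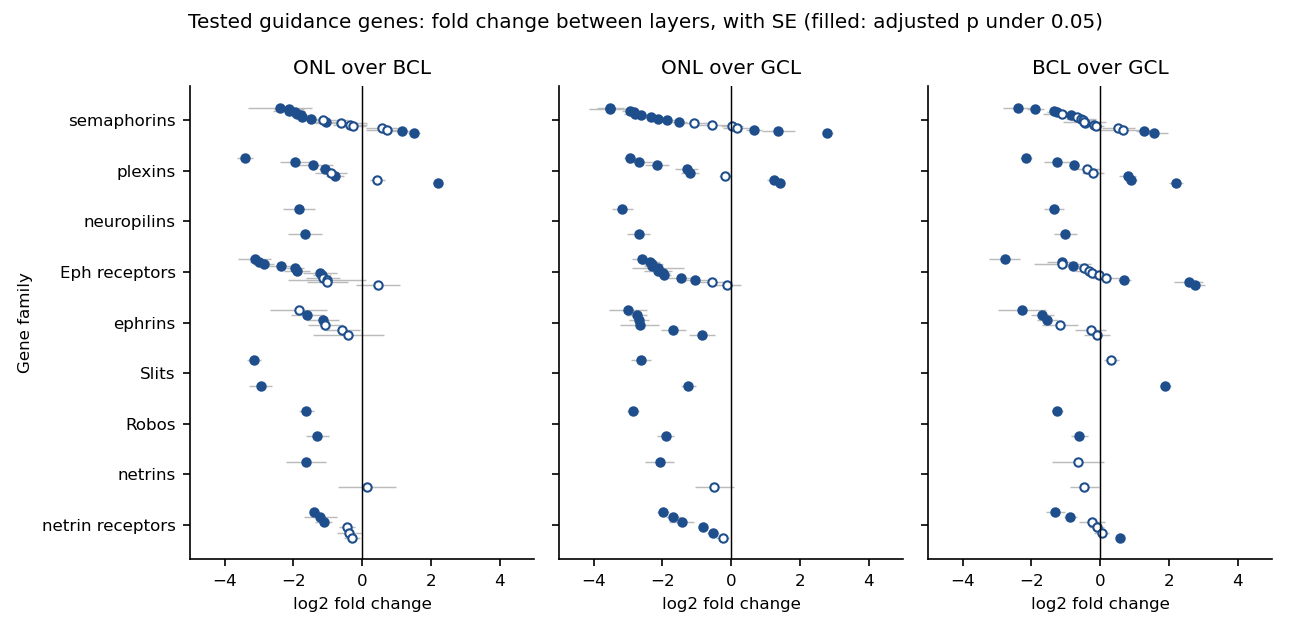
Log2 fold change with its SE for each tested guidance gene, grouped by family, in the 3 comparisons of layers, with filled points for an adjusted p under 0.05. Most points lie below 0 where the ONL is compared with the BCL (3 called above and 34 below) and with the GCL (5 above and 43 below), and they spread to both sides between the BCL and the GCL (10 above and 21 below).

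Among the semaphorins, the largest ligand family, 17 of 20 were tested. The calls were 2 for ONL and 9 for BCL, then 3 for ONL and 10 for GCL, and 2 for BCL and 6 for GCL. Their summed level was 475 to 583 CPM in the ONL, 985 to 1084 CPM in the BCL and 1377 to 1479 CPM in the GCL. Values per library below are in the order of sections 1 to 4. Sema3f, a secreted repellent that binds neuropilin-2, stood at 225, 273, 240 and 193 CPM in the ONL, 87.7, 120, 107 and 104 CPM in the BCL and 26.8, 52.5, 40.0 and 34.1 CPM in the GCL. The layers did not overlap, and the level stepped down from the outer to the inner retina. All 6 rod markers were called in the same order, higher in the ONL than in the BCL and higher in the BCL than in the GCL, and their part in the level of Sema3f was not tested. The ONL exceeded the BCL by a log2 fold change of 1.51 ± 0.18 (SE, edgeR adjusted p = 4.0e-10) and the GCL by 2.80 ± 0.16 (edgeR adjusted p = 9.7e-22), and the BCL exceeded the GCL by 1.29 ± 0.24 (edgeR adjusted p = 1.2e-05). Without correction for length, Sema3f alone made up 33.2 to 50.5% of the semaphorin CPM in the ONL, against 8.90 to 11.1% in the BCL and 1.81 to 3.68% in the GCL.

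Sema4b, a transmembrane semaphorin, was at 36.2, 59.5, 41.1 and 67.7 CPM in the ONL, 36.1, 14.4, 35.6 and 24.7 CPM in the BCL and 30.6, 27.0, 38.4 and 44.4 CPM in the GCL. Its ONL values overlapped those of the GCL, and the differences were smaller than for Sema3f, with 1.17 ± 0.33 over the BCL (edgeR adjusted p = 0.0035) and 0.67 ± 0.23 over the GCL (edgeR adjusted p = 0.0091). Without section 2 neither was called (0.79, edgeR adjusted p = 0.111, and 0.40, edgeR adjusted p = 0.209). Sema3c, a secreted semaphorin at low levels, had 12.5, 5.53, 11.4 and 22.6 CPM in the ONL and 5.10, 5.99, 3.07 and 5.12 CPM in the GCL. Its difference of 1.38 ± 0.48 (edgeR adjusted p = 0.011) was lost without section 1 (edgeR adjusted p = 0.0616) or section 4 (edgeR adjusted p = 0.0779), and in section 2 the GCL was the higher layer.

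The transmembrane semaphorins Sema6a, Sema6b and Sema6d were each highest in the GCL. Sema6a, a ligand of plexin-A2 and plexin-A4 that is known to separate inner retinal neurites, was at 56.2, 38.7, 47.9 and 67.7 CPM in the ONL, 134, 197, 203 and 183 CPM in the BCL and 434, 376, 390 and 408 CPM in the GCL. Each layer stood clear of the next in a rising series, with the GCL over the BCL by 2.52-fold (log2 fold change of BCL over GCL -1.33 ± 0.14, edgeR adjusted p = 2.3e-11) and over the ONL by 7.02-fold (-2.81 ± 0.14 for ONL over GCL, edgeR adjusted p = 8.0e-24). Per length it was the most abundant guidance transcript of the GCL, at a mean of 45.8 RPKM ± 2.86 (SD, n = 4). Sema6b, a related plexin-A ligand, was at 12.5, 15.2, 6.85 and 16.1 CPM in the ONL, 25.8, 33.6, 40.7 and 34.6 CPM in the BCL and 129, 106, 87.6 and 121 CPM in the GCL. It too was clearly highest in the GCL, by 7.63-fold over the ONL (edgeR adjusted p = 2.5e-16) and 3.69-fold over the BCL (edgeR adjusted p = 1.7e-08). Sema6d, a plexin-A1 ligand, ran from 4.57 to 21.2 CPM in the ONL, 56.7 to 67.2 CPM in the BCL and 80.3 to 120 CPM in the GCL, again without overlap, and GCL over ONL was 6.16-fold (edgeR adjusted p = 4.1e-14).

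Sema3a, the secreted repellent read by neuropilin-1 and A-type plexins, was highest in the GCL libraries, with 45.9, 62.9, 40.0 and 68.3 CPM there against 25.8, 0, 5.08 and 14.8 CPM in the BCL and 4.99, 5.53, 2.28 and 0 CPM in the ONL. The log2 fold change was -3.52 ± 0.39 for ONL over GCL (edgeR adjusted p = 2.3e-11) and -2.40 ± 0.43 for BCL over GCL (edgeR adjusted p = 8.2e-06), while ONL against BCL was not called (-1.12, edgeR adjusted p = 0.24). Sema7a, a membrane-anchored ligand of plexin-C1, was also highest in the GCL, at 47.8 to 77.9 CPM against 19.8 to 43.2 CPM in the BCL and 16.1 to 25.1 CPM in the ONL. Sema5a and Sema5b, which are known to keep inner retinal neurites within the inner plexiform layer, differed from each other. Sema5a was at 72.4, 24.9, 22.8 and 45.1 CPM in the ONL, 237, 197, 147 and 242 CPM in the BCL and 273, 217, 243 and 256 CPM in the GCL. The inner layers lay close together, and the call for GCL over BCL (-0.43 ± 0.17 for BCL over GCL, edgeR adjusted p = 0.040) was lost in 5 of 12 alternatives, DESeq2 among them. Sema5b was at 7.49, 4.15, 13.7 and 0 CPM in the ONL, 25.8, 38.4, 40.7 and 44.5 CPM in the BCL and 14.0, 12, 7.68 and 10.2 CPM in the GCL. The BCL values lay above all others, 4.36-fold over the ONL (edgeR adjusted p = 0.00015) and 2.94-fold over the GCL (edgeR adjusted p = 0.0015).

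Sema3e, Sema4d and Sema4g were each called lower in the ONL than in both inner layers, with no call between these. Sema3e, the ligand of plexin-D1, had 2.28 to 12.9 CPM in the ONL, 33.6 to 61.9 CPM in the BCL and 34.1 to 73.8 CPM in the GCL. Sema4d, the ligand of plexin-B1, had 9.13 to 29.0 CPM, 67.2 to 92.8 CPM and 68.8 to 84.5 CPM in the same order, and shares 13.7% of its exonic bases with Secisbp2. Sema4g had 33.7, 24.9, 6.85 and 45.1 CPM in the ONL, 129, 187, 132 and 84.0 CPM in the BCL and 149, 144, 112 and 133 CPM in the GCL, with 12.7% of its exonic bases shared with Mrpl43. Sema4a, Sema4c and Sema6c passed no test between layers and stayed between 0 and 32.4 CPM. Sema4f was called lower in the ONL, where it had 3 UMIs in all, than in either inner layer, but its call for BCL over ONL was lost in 5 of 12 alternatives (largest edgeR adjusted p = 0.160), and the pooled ratio of GCL over ONL was 14.9 (95% interval 4.84 to 74.7).

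**Figure D3:**
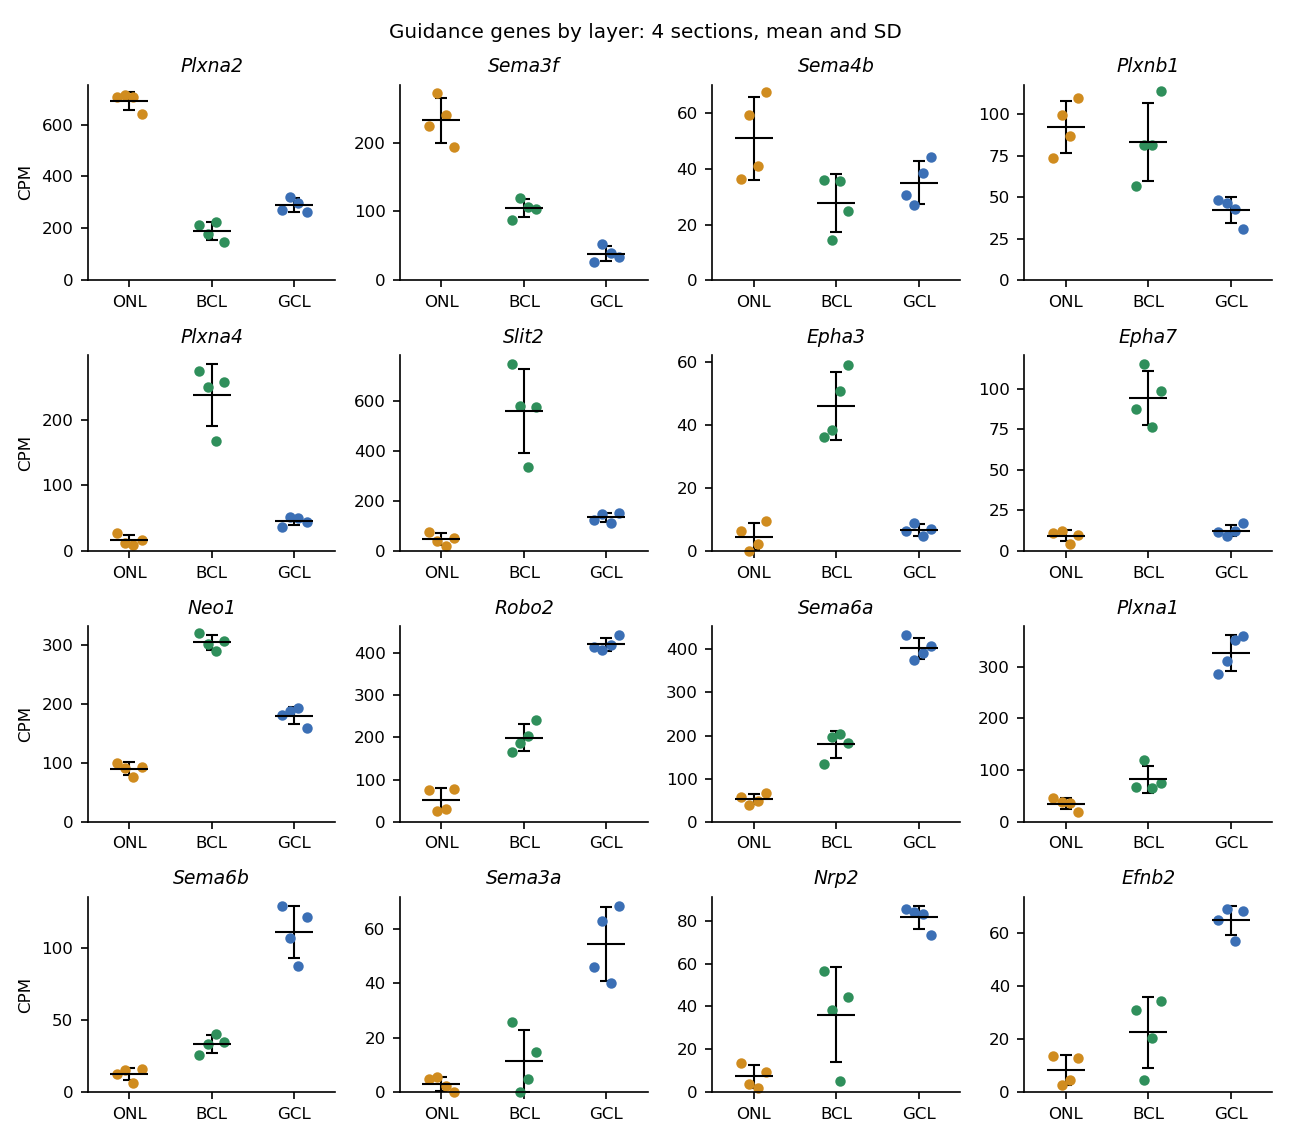
CPM of 16 guidance genes in the ONL, BCL and GCL, with 1 point for each of 4 sections and the mean and SD as bars. Plxna2 and Sema3f are highest in the ONL in every section, Plxna4, Slit2, Epha3, Epha7 and Neo1 in the BCL, and Robo2, Sema6a, Plxna1, Sema6b, Sema3a, Nrp2 and Efnb2 in the GCL.

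All 8 plexins, the semaphorin receptors, were tested, and their summed level overlapped between the layers, at 864 to 966 CPM in the ONL, 742 to 918 CPM in the BCL and 866 to 964 CPM in the GCL. The members behind that sum differed. The calls were 1 for ONL and 5 for BCL, 2 for ONL and 5 for GCL, and 3 for BCL and 3 for GCL. Plxna2, which encodes a receptor of Sema6a (GRCm39 chr1:194300526-194499177, plus strand), stood at 705, 714, 708 and 641 CPM in the ONL, 211, 178, 224 and 148 CPM in the BCL and 273, 322, 297 and 261 CPM in the GCL. The ONL was far above both inner layers in every section, and the BCL was the lowest. The log2 fold change was 2.20 ± 0.14 for ONL over BCL (edgeR adjusted p = 2.6e-19), 1.43 ± 0.11 for ONL over GCL (edgeR adjusted p = 6.4e-17) and -0.77 ± 0.15 for BCL over GCL (edgeR adjusted p = 2.9e-05). Without correction for length, Plxna2 gave 73.0 to 77.9% of all plexin CPM in the ONL, against 16.2 to 30.1% in the BCL and 30.2 to 33.4% in the GCL. The other plexins together reached 201 to 261, 518 to 766 and 600 to 650 CPM in these layers. The annotation used here places 16.8% of its exonic bases within 2 further predicted genes, Gm6403 and Gm70935, and the counting ran at the defaults of featureCounts, which ignore the strand and leave a read that falls on exons of more than 1 gene unassigned. Levels of genes that shared exonic bases in the older annotation used for counting may therefore be too low. Whether Gm6403 and Gm70935 were in that annotation was not checked.

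Plxna1, Plxna4, Plxnb1 and Plxnb2 each followed another pattern. Plxna4, a receptor of Sema6a and a partner of neuropilin-1, was at 27.5, 12.4, 9.13 and 16.1 CPM in the ONL, 273, 249, 168 and 257 CPM in the BCL and 36.9, 51.0, 50.7 and 44.4 CPM in the GCL. It was the plexin with the steepest contrast between ONL and BCL, at 10.6-fold (log2 fold change -3.40 ± 0.24, edgeR adjusted p = 8.4e-18), and the BCL also exceeded the GCL by 2.21 ± 0.19 (edgeR adjusted p = 2.9e-14). Plxna1, a receptor of Sema6d and of the class 5 semaphorins, was at 46.2, 37.4, 36.5 and 19.3 CPM in the ONL, 67.1, 120, 66.1 and 74.2 CPM in the BCL and 285, 312, 352 and 359 CPM in the GCL. The GCL stood far apart, by 7.66-fold over the ONL (edgeR adjusted p = 2.1e-22) and 4.43-fold over the BCL (edgeR adjusted p = 1.2e-14), and the smaller difference of BCL over ONL was lost without section 2 (edgeR adjusted p = 0.201) or section 4 (edgeR adjusted p = 0.0600).

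Plxnb1, the receptor of Sema4d, was at 73.6, 99.6, 86.7 and 110 CPM in the ONL, 56.7, 81.6, 81.3 and 114 CPM in the BCL and 48.4, 46.5, 43.0 and 30.7 CPM in the GCL. The ONL and BCL overlapped (0.44, edgeR adjusted p = 0.11). Both exceeded the GCL, by 1.24 ± 0.18 for the ONL (edgeR adjusted p = 5.5e-08) and 0.80 ± 0.24 for the BCL (edgeR adjusted p = 0.0064). The latter was lost without section 4 (0.47, edgeR adjusted p = 0.220). Plxnb2, a receptor of class 4 semaphorins, was at 68.7, 81.6, 57.1 and 51.6 CPM in the ONL, 201, 168, 137 and 213 CPM in the BCL and 73.9, 105, 78.4 and 87.1 CPM in the GCL. It was highest in the BCL, by 2.10-fold over the ONL (edgeR adjusted p = 5.7e-06) and 1.86-fold over the GCL (edgeR adjusted p = 4.1e-05). Plxnd1, the Sema3e receptor, ran from 32.4 to 65.0 CPM in the GCL, 9.60 to 35.6 CPM in the BCL and 2.77 to 9.99 CPM in the ONL, and in section 3 the BCL value was the higher of the inner layers. Plxna3 and Plxnc1 stayed at or below 67.1 CPM in every layer library.

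Both neuropilins were called in all 3 comparisons and increased from the outer to the inner retina. Nrp2, the co-receptor for Sema3f, was at 13.7, 4.15, 2.28 and 9.67 CPM in the ONL, 56.7, 38.4, 5.08 and 44.5 CPM in the BCL and 85.3, 83.9, 83.0 and 73.4 CPM in the GCL. The GCL values lay above all others, by 8.95-fold over the ONL (edgeR adjusted p = 2.4e-13) and 2.52-fold over the BCL (edgeR adjusted p = 0.00018), while BCL section 3 fell among the ONL values. The order of Nrp2 across the layers was the reverse of that of its ligand Sema3f. Nrp1, the co-receptor for Sema3a, had 4.15 to 12.9 CPM in the ONL, 15.2 to 28.8 CPM in the BCL and 35.9 to 51.0 CPM in the GCL, which was also the layer of Sema3a. Its call for GCL over BCL was lost in 3 of 12 alternatives, and that for BCL over ONL without section 2 (edgeR adjusted p = 0.0704).

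Of the 8 ephrins, ligands anchored in the membrane, 6 were tested, and 2 were higher in the BCL than the ONL, 6 higher in the GCL than the ONL and 3 higher in the GCL than the BCL, with none in the opposite direction. The calls of BCL over ONL were lost in 5 of 12 alternatives for Efna5 (largest edgeR adjusted p = 0.216) and in 2 for Efnb1, and that of GCL over ONL for Efnb3 in 4, DESeq2 among them. Their summed level was 27.7 to 53.7 CPM in the ONL, 81.6 to 143 CPM in the BCL and 195 to 227 CPM in the GCL. Efnb2, a transmembrane ephrin, was at 13.7, 2.77, 4.57 and 12.9 CPM in the ONL, 30.9, 4.80, 20.3 and 34.6 CPM in the BCL and 65.0, 68.9, 56.9 and 68.3 CPM in the GCL. The GCL stood alone, by 6.72-fold over the ONL (edgeR adjusted p = 2.9e-11) and 3.21-fold over the BCL (edgeR adjusted p = 4.9e-05), and ONL against BCL was not called (-1.07, edgeR adjusted p = 0.094) except with column totals alone (-1.41, edgeR adjusted p = 0.0255). Efna5, known for its part in mapping retinal axons onto their targets, had 52.3 to 64.9 CPM in the GCL, 15.5 to 29.7 CPM in the BCL and 4.57 to 12.9 CPM in the ONL. The remaining tested ephrins, Efna2, Efna3, Efnb1 and Efnb3, stayed at or below 45.7 CPM in the layers.

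Of the 14 Eph receptors, 12 were tested, and against the ONL 8 were called for the BCL and 10 for the GCL, with none for the ONL. Between the inner layers 3 were called for each side. The summed level was 98.2 to 196 CPM in the ONL, 625 to 815 CPM in the BCL and 590 to 675 CPM in the GCL, so that the inner layers overlapped as a sum while single receptors were split between them.

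On the BCL side were Epha3, Epha4 and Epha7. Epha3 had 6.24, 0, 2.28 and 9.67 CPM in the ONL, 36.1, 38.4, 50.8 and 59.3 CPM in the BCL and 6.37, 8.99, 4.61 and 6.83 CPM in the GCL, 8.74-fold higher in the BCL than in the ONL (edgeR adjusted p = 4.6e-07) and 5.94-fold higher than in the GCL (edgeR adjusted p = 1.7e-06). Epha7 had 11.2, 12.4, 4.57 and 9.67 CPM in the ONL, 87.7, 115, 76.2 and 98.9 CPM in the BCL and 11.5, 8.99, 12.3 and 17.1 CPM in the GCL, with ratios of 7.28 (edgeR adjusted p = 5.3e-11) and 6.74 (edgeR adjusted p = 2.2e-11). For both, ONL and GCL overlapped and neither difference between them was called (edgeR adjusted p = 0.42 for Epha3 and 0.83 for Epha7). Epha4, which binds ephrins of both classes, had 25, 12.4, 4.57 and 16.1 CPM in the ONL, 211, 139, 163 and 129 CPM in the BCL and 77.7, 91.4, 84.5 and 99.0 CPM in the GCL. All 3 layers were set apart, and the excess of BCL over GCL (0.70 ± 0.19, edgeR adjusted p = 0.0024) was lost without section 1 (0.47, edgeR adjusted p = 0.0740). The BCL was also the layer with the most Müller glia markers, all 6 of which were called higher there than in either other layer, and their part in these results was not tested. Of the 4 endothelial markers tested, Kdr and Flt1 were called higher in the BCL than in either other layer. Kdr had a median of 823 CPM in the BCL against 73.7 CPM in the ONL and 82.3 CPM in the GCL, whereas Pecam1 was called higher in the GCL than in the BCL (BCL over GCL -1.93, edgeR adjusted p = 0.0012), with medians of 32.7 and 5.01 CPM.

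On the GCL side were Epha6, Ephb2 and Ephb6. Epha6 had 11.2, 9.68, 11.4 and 3.22 CPM in the ONL, 20.6, 4.80, 10.2 and 0 CPM in the BCL and 77.7, 42, 40 and 56.3 CPM in the GCL. The ONL and BCL overlapped and the GCL lay above both, by 4.94-fold over the ONL (edgeR adjusted p = 9.7e-09) and 6.84-fold over the BCL (edgeR adjusted p = 1.4e-06). The call of Ephb6 for GCL over BCL was lost in 4 of 12 alternatives. Ephb2, a receptor for B-type ephrins, had 99.0 to 148 CPM in the GCL, 61.0 to 87.7 CPM in the BCL and 22.8 to 31.8 CPM in the ONL. Epha5 did not follow either side, with 53.7, 13.8, 11.4 and 29.0 CPM in the ONL, 139, 149, 122 and 163 CPM in the BCL and 125, 138, 154 and 108 CPM in the GCL. Its inner layers overlapped (-0.04 ± 0.20 for BCL over GCL, edgeR adjusted p = 0.91) and both exceeded the ONL, by 3.86-fold and 3.96-fold (edgeR adjusted p = 2.5e-08 and 2.2e-11).

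Slits are secreted repellents and Robos are their receptors, and the main genes of the pair of families were highest in different layers. Slit2 was at 77.4, 40.1, 18.3 and 51.6 CPM in the ONL, 748, 581, 335 and 578 CPM in the BCL and 125, 148, 112 and 152 CPM in the GCL. No BCL library overlapped another layer, and the BCL was 8.83-fold above the ONL (log2 fold change -3.14 ± 0.20, edgeR adjusted p = 4.8e-19) and 3.72-fold above the GCL (1.90 ± 0.17, edgeR adjusted p = 5.9e-14). Slit1 was at 13.7, 6.92, 9.13 and 9.67 CPM in the ONL, 87.7, 120, 122 and 74.2 CPM in the BCL and 71.3, 46.5, 101 and 68.3 CPM in the GCL. Its inner layers overlapped (0.32, edgeR adjusted p = 0.28) and both were well above the ONL (7.75-fold with edgeR adjusted p = 9.4e-11, and 6.19-fold with edgeR adjusted p = 1.7e-11). Per length the Slits were close in the BCL, at 22.0 RPKM ± 6.68 for Slit2 and 17.0 RPKM ± 4.02 for Slit1 (SD, n = 4), while in the GCL Slit1 had 12.1 RPKM ± 3.82 and Slit2 had 5.28 RPKM ± 0.749.

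Robo2, per length the higher of the tested Robos in each layer, was at 76.1, 26.3, 29.7 and 77.4 CPM in the ONL, 165, 187, 203 and 242 CPM in the BCL and 414, 408, 420 and 444 CPM in the GCL. It increased from layer to layer without overlap, with GCL over ONL at 7.26-fold (log2 fold change -2.86 ± 0.17, edgeR adjusted p = 1.9e-21) and GCL over BCL at 2.37-fold (-1.24 ± 0.16, edgeR adjusted p = 6.4e-09). The ONL sections with more Robo2, sections 1 and 4, also held more ganglion cell markers (0.0537 and 0.0493% of UMIs, against 0.0245 and 0.0263% in sections 2 and 3), and more bipolar, Müller glia and amacrine markers (0.0741 and 0.0761% against 0.0530 and 0.0548% for bipolar cells, 0.110 and 0.117% against 0.0634 and 0.0701% for Müller glia, and 0.0690 and 0.0590% against 0.0394 and 0.0386% for amacrine cells). The part of these in the ONL level was not tested. Robo1 had 9.68 to 38.7 CPM in the ONL, 35.6 to 82.5 CPM in the BCL and 76.4 to 109 CPM in the GCL. The call of GCL over BCL for Robo1 (1.52-fold, edgeR adjusted p = 0.045) was lost in 6 of 12 alternatives, and in section 1 the BCL was higher.

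Netrins were scarce in every layer, with a family sum of 5.53 to 18.3 CPM in the ONL, 9.89 to 38.4 CPM in the BCL and 35.7 to 49.5 CPM in the GCL. Ntn4, a laminin-like netrin, was at 8.74, 0, 9.13 and 3.22 CPM in the ONL, 25.8, 24.0, 25.4 and 9.89 CPM in the BCL and 26.8, 30.0, 16.9 and 30.7 CPM in the GCL. Its inner layers overlapped and both were above the ONL (-1.62 ± 0.58 for ONL over BCL, edgeR adjusted p = 0.022, and -2.08 ± 0.42 for ONL over GCL, edgeR adjusted p = 2.9e-05). Without section 2 the former was not called (-1.05, edgeR adjusted p = 0.208). Ntn1, the prototype of the family, had 3, 0 and 23 UMIs for ONL, BCL and GCL, which is at least 2.29-fold higher in the GCL than the limit of 3 UMIs over the BCL. Ntn3 passed no test.

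By contrast the netrin receptors were well represented, at 219 to 287 CPM in the ONL, 600 to 662 CPM in the BCL and 555 to 627 CPM in the GCL. All 6 were tested, and against the ONL 3 were called for the BCL and 5 for the GCL, and between these layers 1 for the BCL and 2 for the GCL. Neo1, which encodes neogenin, a receptor for netrins and repulsive guidance molecules, was at 99.9, 91.3, 75.3 and 93.5 CPM in the ONL, 320, 302, 290 and 307 CPM in the BCL and 181, 187, 192 and 159 CPM in the GCL. The layers were well separated, and the log2 fold change was -1.40 ± 0.15 for ONL over BCL (edgeR adjusted p = 1.9e-11), -0.81 ± 0.13 for ONL over GCL (edgeR adjusted p = 6.0e-07) and 0.59 ± 0.13 for BCL over GCL (edgeR adjusted p = 0.00025). Per length Neo1 was the most abundant of the 69 genes in the BCL, at 34.9 RPKM ± 1.43 (SD, n = 4).

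Dcc, the attractive netrin receptor, was at 54.9, 36.0, 27.4 and 16.1 CPM in the ONL, 108, 96.0, 91.5 and 119 CPM in the BCL and 182, 184, 152 and 150 CPM in the GCL. The order was that of Robo2, with GCL over ONL at 3.92-fold (edgeR adjusted p = 3.3e-14) and GCL over BCL at 1.82-fold (edgeR adjusted p = 0.00019). Unc5a, a receptor that turns netrin attraction into repulsion, had 68.8 to 93.8 CPM in the GCL, 28.8 to 54.4 CPM in the BCL and 16.1 to 28.7 CPM in the ONL. Unc5d was not called in any comparison of layers and stayed between 41.9 and 91.2 CPM.

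Of the 12 genes that did not pass the low-count filter, 4 had 23 or more UMIs in the GCL. With no low-count filter all 69 genes were tested. Between ONL and GCL, 5 were then called for the ONL and 48 for the GCL, and between BCL and GCL, 10 for the BCL and 25 for the GCL. Sema3g had 2, 1 and 46 UMIs for ONL, BCL and GCL, a pooled ratio of GCL over ONL of 19.4 (95% interval 5.08 to 165). Slit3 had 1, 0 and 27 UMIs, with a GCL over ONL ratio of 22.8 (3.76 to 934) and a level at least 2.68-fold higher than the limit of the BCL. Efna1 had 3, 2 and 24 UMIs and Ntn1 was given above. The other sparse genes were Sema3d, with 2, 8 and 5 UMIs, Sema3b, Efna4, Epha1, Epha2, Ntn5, Robo3 and Robo4, none above 13 UMIs in a layer.

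Compared per length, the leading guidance transcripts differed by layer. In the ONL they were Sema3f at 44.8 RPKM ± 6.33 (SD, n = 4) and Plxna2 at 40.3 ± 1.97 RPKM, ahead of Neo1 at 10.3 ± 1.20 RPKM. In the BCL, Neo1 was followed by Plxnb2 at 23.3 ± 4.42 RPKM, Slit2 at 22.0 ± 6.68 RPKM, Sema6a at 20.4 ± 3.56 RPKM, Sema3f at 20.1 ± 2.55 RPKM and Epha4 at 19.9 ± 4.58 RPKM, neighbours that did not differ beyond their spread. In the GCL, Sema6a was followed by Plxna1 at 36.1 ± 3.82 RPKM, Sema6b at 28.0 ± 4.57 RPKM and Robo2 at 24.8 ± 0.93 RPKM, of which the last pair overlap in their spread.

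A further list of 38 co-receptors, other guidance cues and cytoplasmic effectors was read from the same fits. Of 36 tested, the calls were 3 for ONL and 14 for BCL, 4 for ONL and 27 for GCL, and 4 for BCL and 21 for GCL, with median log2 fold changes of -0.49, -1.57 and -0.67. Of all genes, 18.5% and 18.2%, 29.3% and 32.2%, and 16.1% and 20.4% were called in these directions. Dscaml1, a homophilic adhesion molecule of the Dscam family, had means of 487, 288 and 94.7 CPM in the ONL, BCL and GCL, and all 3 differences were called (ONL over GCL 2.54 ± 0.13, edgeR adjusted p = 2.0e-24). Farp2, a Rac activator downstream of A-type plexins, had means of 94.8, 61.1 and 22.6 CPM in the same order (ONL over GCL 2.20 ± 0.19, edgeR adjusted p = 1.2e-14). Both followed the order of Sema3f. In the ONL over the BCL, Rgmb, a neogenin ligand, was also higher (1.24 ± 0.27, edgeR adjusted p = 0.00018), while Trio, an exchange factor downstream of Dcc (-2.01 ± 0.17, edgeR adjusted p = 9.5e-15), Tiam1 (-1.58 ± 0.27, edgeR adjusted p = 2.2e-06), Chn2 (-2.18 ± 0.39, edgeR adjusted p = 5.7e-06) and Chn1 (-1.01 ± 0.19, edgeR adjusted p = 1.7e-05) were lower.

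The GCL stood out for Srgap1, a GTPase-activating protein that binds Robo, with means of 53.8, 55.2 and 635 CPM in the ONL, BCL and GCL (BCL over GCL -3.69 ± 0.19, edgeR adjusted p = 1.2e-22). L1cam, an adhesion molecule that associates with neuropilin-1, had means of 47.8, 63.6 and 544 CPM (BCL over GCL -3.26 ± 0.19, edgeR adjusted p = 4.5e-21). Cntn2, an axonal adhesion molecule, had means of 8.36, 12.5 and 132 CPM (BCL over GCL -3.54 ± 0.32, edgeR adjusted p = 1.0e-13). Mical2, an actin-oxidising enzyme, was higher in the GCL than in the BCL (-2.93 ± 0.33, edgeR adjusted p = 1.2e-10). In the other direction, Ablim1 was 0.54 ± 0.12 higher in the ONL than in the GCL (edgeR adjusted p = 0.00011), Abl2, a tyrosine kinase, 0.59 ± 0.16 higher in the ONL than in the GCL (edgeR adjusted p = 0.0015), and Met, a receptor kinase that can pair with plexin-B1, 1.82 ± 0.39 higher in the BCL than in the GCL (edgeR adjusted p = 0.00013). All 9 ganglion cell markers and the 3 tested of 4 pericyte markers were likewise called higher in the GCL than in either other layer, while Kcnj8, the pericyte marker too low to test, had medians of 4.87 CPM in the BCL and 0.854 CPM in the GCL. Of 8 amacrine markers, 7 were called higher in the GCL than in the ONL and 6 than in the BCL, of 5 astrocyte markers 4 and 3, of the 4 tested of 5 microglia markers 4 and 1, and of the 4 tested of 5 endothelial markers 3 and 1, with 2 of these called higher in the BCL than in the GCL. The amacrine marker Slc6a9 and the astrocyte marker Aqp4 were called higher in the ONL than in the GCL, and Aqp4 also higher in the BCL than in the GCL. Of 6 Müller glia markers, 5 were called higher in the GCL than in the ONL and 1 lower, while all 6 were called higher in the BCL than in the GCL. The part of these cell types in the GCL differences was not tested.

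The amacrine experiment compared TH+ with TH- cells of the same sections. The 5 dopaminergic markers all had UMIs and summed to 0.210 to 0.435% of UMIs in TH+ libraries, against 0.0131 to 0.0265% in TH- libraries, with Th 4.22 higher on the log2 scale (edgeR adjusted p = 5.5e-15). Rod markers were present in both at 1.22 to 3.13% and 0.697 to 1.86% of UMIs, and 1 of 6 was called higher in TH+ libraries, whose part in the results was not tested. Guidance genes made up 0.498% ± 0.064 of UMIs in TH+ libraries (SD, n = 5) and 0.544% ± 0.051 in TH- libraries, with overlapping ranges of 0.437 to 0.587% and 0.492 to 0.629%. Of 38 guidance genes with enough UMIs, 1 was called higher in TH+ cells and 0 in TH- cells, against 0.747% and 0.083% of the 6021 genes tested and 0.83% in either direction. These were 45 and 5 genes, which became 96 and 52 with the section as a block, 51 and 22 without section 2, 27 and 2 without section 3, 30 and 1 without section 5, 35 and 2 with DESeq2 and 34 and 32 with no low-count filter. The unadjusted p was under 0.05 for 4 of them, and DESeq2 also called 1 and 0. Their median log2 fold change was -0.16, with -0.05 for all genes.

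Plxna4 was the gene called. In sections 1 to 5 it was at 368, 560, 235, 151 and 231 CPM in TH+ cells and 118, 116, 96.7, 160 and 98.7 CPM in TH- cells. TH+ cells had the higher value in 4 of 5 sections, section 4 being the exception. The log2 fold change was 1.49 ± 0.27 (SE, edgeR adjusted p = 0.00029) and remained called in 11 of 12 alternatives, with the section as a block among them, but without section 2, the section with the highest TH+ value, it was 1.02 (edgeR adjusted p = 0.0877). In the layer experiment Plxna4 was highest in the BCL, with 237 CPM ± 47.2 there (SD, n = 4) against 45.8 CPM ± 6.61 in the GCL and 16.3 CPM ± 7.98 in the ONL.

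No TH+ library had a UMI of Sema5b, which did not pass the low-count filter and was not tested in the fit reported here. With no low-count filter it was tested and was not called. The TH- libraries had 32.9, 28.9, 37.2, 34.9 and 14.1 CPM, together 24 UMIs, which is at least 2.55-fold above the limit of 3 UMIs over the TH+ libraries. The groups did not overlap, and the TH+ depth allows no firmer statement.

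**Figure D4:**
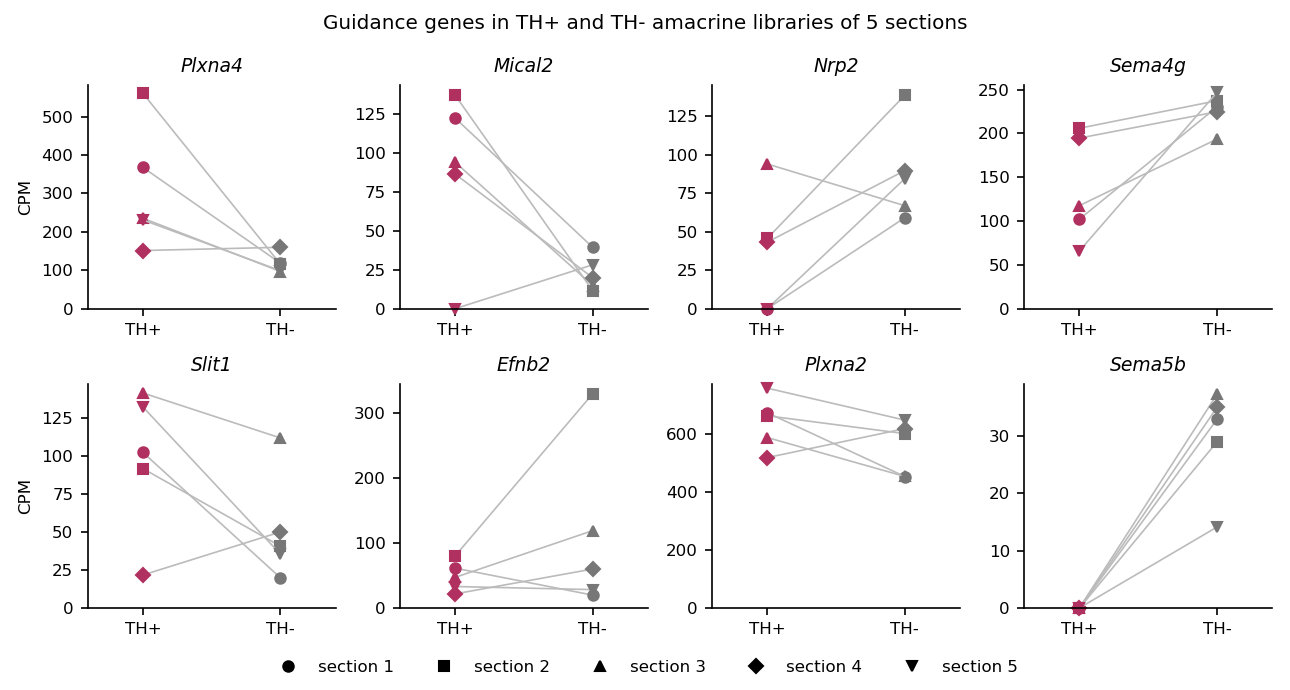
CPM of 7 guidance genes and the effector Mical2 in TH+ and TH- libraries of the same 5 sections. Each group has 1 point per section, with marker shape giving the section, and grey lines join the TH+ and TH- libraries of a section. Plxna4 is higher in TH+ cells in 4 of 5 sections, Sema4g is lower in 5 of 5, and Sema5b is at 0 in all 5 TH+ libraries.

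The other guidance genes with the smallest p were not called. Sema4g had 102, 206, 118, 195 and 66.0 CPM in TH+ cells and 230, 237, 193, 225 and 247 CPM in TH- cells, lower in TH+ in 5 of 5 sections (-0.60 ± 0.27, edgeR adjusted p = 0.47). Nrp2 had 0, 45.7, 94.1, 43.2 and 0 CPM against 59.2, 139, 67.0, 89.8 and 84.6 CPM (-1.17 ± 0.49, edgeR adjusted p = 0.41). For Slit1 the values were 102, 91.5, 141, 21.6 and 132 CPM against 19.7, 40.5, 112, 49.9 and 35.2 CPM (0.89 ± 0.44, edgeR adjusted p = 0.55), with TH+ the higher in each section but section 4. Efnb2 had 61.3, 80.0, 47.1, 21.6 and 33.0 CPM against 19.7, 330, 119, 59.9 and 28.2 CPM (-1.05 ± 0.56, edgeR adjusted p = 0.61). With the section as a block Efnb2 was called lower in TH+ cells (-1.36, edgeR adjusted p = 0.0351), although TH+ was the higher in sections 1 and 5, and 330 CPM in TH- section 2 was by far its highest value.

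Per length, the most abundant guidance transcripts of TH+ cells were Efnb3, a transmembrane ephrin, at 39.7 RPKM ± 6.42 (SD, n = 5), Plxna2 at 37.3 ± 5.30 RPKM and Plxna1 at 35.2 ± 8.61 RPKM. In TH- cells they were Plxna1 at 37.3 ± 6.03 RPKM, Neo1 at 34.6 ± 3.54 RPKM, Plxna2 at 32.3 ± 5.48 RPKM and Efnb3 at 31.1 ± 11.1 RPKM. Neighbours in both orders did not differ beyond their spread. Plxna2 did not differ between the groups (0.19 ± 0.18, edgeR adjusted p = 0.84), with 674, 663, 588, 519 and 759 CPM in TH+ cells and 454, 602, 454, 619 and 648 CPM in TH- cells. Efnb3 had 102, 149, 141, 108 and 132 CPM in TH+ cells and 65.7, 150, 67.0, 99.8 and 113 CPM in TH- cells (0.35 ± 0.33, edgeR adjusted p = 0.84), while no layer library exceeded 33.6 CPM. The amacrine and layer experiments were normalized separately, so such levels are set side by side and were not tested.

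Of 31 effector genes tested in the amacrine cells, 1 was called, with a list median of -0.10, or 0.05 without section 3. Mical2 was at 122, 137, 94.1, 86.5 and 0 CPM in TH+ cells and 39.4, 11.6, 14.9, 20.0 and 28.2 CPM in TH- cells. It was the higher in TH+ cells in 4 of 5 sections and absent from the shallowest library, section 5. The log2 fold change was 2.10 ± 0.48 (edgeR adjusted p = 0.011), and it was called in 8 of 12 alternatives, with adjusted p from 0.00283 to 0.195. It was lost without section 2, without section 3 and without section 4, and it was not tested under edgeR's default count filter.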

How the data were processed

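Light-Seq libraries of 3 layers of 4 retinal sections (12 libraries) and of TH+ and TH- amacrine cells of 5 sections (10 libraries) were analysed. Of the mixed cultures only the gene lengths were used, and the pooled layer library and the authors' own comparisons were not used. The authors took UMI and barcode with UMI-tools 1.1.1, mapped the cDNA with STAR 2.7.9a to mm39, kept uniquely mapped reads, counted those in GENCODE exons with featureCounts, reduced them to distinct UMIs and sorted these by exact barcode. SAMtools 1.9 is also in the submitters' processing notes. The deposited count is therefore a whole number of distinct UMIs per gene, without normalization. Keeping unique matches alone lowers genes with near-identical copies, and random internal priming gives long genes more UMIs, which is why levels of different genes are compared as RPKM. Exonic lengths were those given with the authors' counts of a mixed culture. Coordinates and overlaps were read from a newer GENCODE annotation of GRCm39 in which all 69 genes were found by Ensembl identifier.

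The members, lists and tests were chosen with earlier results of these data known. Each table was fitted whole with edgeR 4.0.16 under R 4.3.3 (quasi-likelihood F test, TMM scaling, filter with a minimum count of 3 and a total of 10, Benjamini-Hochberg adjustment at 0.05), and the procedure was tested on simulated data. TMM factors were 0.859 to 0.939 for the ONL, 1.11 to 1.14 for the BCL and 0.983 to 1.00 for the GCL, so fitted folds differ from ratios of CPM. An SE is the log2 fold change divided by the square root of F. Common dispersion gave a coefficient of variation of 9.17% in the layer fit and 16.0% in the amacrine fit. Members named in full were the 8 called in each direction of each layer comparison with the smallest adjusted p, every member called and the 5 with the smallest p between TH+ and TH- cells, and the member with the highest mean CPM of each family; members named otherwise were chosen after their values were seen. Up to 4 effectors per direction were named likewise. Ratios of pooled UMIs carry exact 95% intervals that cover counting error only.

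Libraries of 1 section are paired by the design. After removing group means, their residuals correlated at 0.0116 to 0.0493 in the layers (12 pairs) and at 0.0287 to 0.257 in the amacrine cells (5 pairs), and libraries of different sections at -0.0609 to 0.0431 and -0.117 to 0.0418. Alternatives were DESeq2 1.42.0, its size factors in edgeR, column totals alone, no or the default low-count filter, a block for the section, exclusion of mitochondrially encoded genes, only the layers compared, and each section left out. Tables and figures used python 3.11.15, numpy 2.4.6, pandas 2.3.3, scipy 1.17.1 and matplotlib 3.10.9. Values of some genes outside the guidance families are not reported here.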

Additional observations from a re-analysis of the deposited data

Results flagged for a closer look

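Single libraries that stood apart from the others of their group were looked for in the CPM of the 28 guidance genes named in full and in the share of UMIs held by all guidance genes. Of the 144 sets of libraries whose values were not all equal, 6 held one (4.17%), where chance flags about 1 in 20 groups. Plxna2 in ONL section 4 was at 641.5 CPM where the other ONL sections had 705 to 714 CPM, still above every library of the inner layers. Plxna1 in BCL section 2 was at 119.9 CPM against 66.1 to 74.2 CPM in the other BCL sections, and its call of BCL over ONL was lost without that section. Ntn4 in BCL section 4 was at 9.89 CPM against 24.0 to 25.8 CPM. Sema3c in BCL section 3 was at 5.08 CPM against 9.6 to 10.3 CPM. Among the TH- libraries, Epha6 was at 0 CPM in section 3 and at 28.2 to 34.7 CPM elsewhere, and Sema3c was at 7.05 CPM in section 5 and at 0 elsewhere.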

How the results depend on the processing

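No called fold change of a guidance gene named in full changed direction under the alternatives run, while some that were not called did. The effector median between TH+ and TH- cells was 0.05 without section 3 in place of -0.10, and the median of all genes turned to -0.01 for ONL over BCL, -0.06 for ONL over GCL and 0.01 for BCL over GCL with DESeq2. Between layers, the number of guidance genes called stayed within 1.5 times the reported number under each of them, from 29 to 36 for ONL against BCL, 45 to 50 for ONL against GCL and 29 to 35 for BCL against GCL when a section was left out, where the full data gave 37, 48 and 31. Between TH+ and TH- cells, 2 guidance genes were called with the section as a replicate block (1 higher and 1 lower, Efnb2), in place of 1, and over all genes 148 in place of 50. With the block, the layer comparisons called 36, 48 and 31 guidance genes, and Efna5 for ONL over BCL was the call lost. Leaving out a section gave 0 to 1 guidance genes, with 0 without section 2, and 0 to 1 effectors, with 0 without section 2, 3 or 4. The effector count was also 0 under edgeR's default filter, which did not test Mical2. With mitochondrially encoded genes left out, the guidance genes held 0.516% of GCL UMIs in place of 0.469%, since the denominator is smaller, and the shares of the other groups moved by less than their SD. Of the fold changes given for named genes, Sema4b for ONL over GCL was not called with DESeq2 (0.62) or column totals alone (0.50), Sema5a for BCL over GCL with DESeq2 (-0.40), its size factors (-0.40), column totals (-0.26) or the default filter (-0.39), and Sema6b for ONL over BCL with no filter (-1.02). Efnb2 was called in addition with column totals for ONL over BCL. The causes were not tested. The TH+ libraries were shallow, and with the low-count filter used 38 of the 69 genes were tested between TH+ and TH- cells. With no low-count filter 66 were tested.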
